A study of Mus musculus with 6 samples.

Results

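The oocyte growth transcription factors described here are the 7 genes Figla, Nobox, Sohlh1, Sohlh2, Lhx8, Taf4b and Tbpl2, taken by name from the 25239 gene symbols of the count table. All 7 were in the table and all 7 passed the filter on low counts, as did 14114 genes in all. The libraries were made from poly(A) RNA of mouse fully grown oocytes (FGO) by Smart-seq2. This method copies whole transcripts into cDNA from little input and does not mark strand. There were 3 libraries from wild-type (WT) females and 3 from Gdf9-cre Nat10 conditional knockout females (cKO), and all oocytes were taken 36 to 48 h after PMSG, a gonadotropin that stimulates follicle growth. Gdf9-cre is active in oocytes and not in the follicle cells around them, and NAT10 is the acetyltransferase that makes N4-acetylcytidine in RNA. The comparison asks how losing it changes oocyte transcripts. The strain, the age, the floxed exons, the number of oocytes per library and whether the WT females carried floxed alleles are not given in the sources used here. No label ties the 3 libraries within a genotype to separate females, so p-values here measure spread from library to library, and that may be technical.

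These genes encode the regulators that switch on and maintain the oocyte's own transcription programme as follicles form and grow. FIGLA, SOHLH1 and SOHLH2 are basic helix-loop-helix proteins, which bind the E-box motif as dimers, and FIGLA is known in mouse for activating the zona pellucida genes. NOBOX and LHX8 are homeodomain proteins, and mouse females that lack either one lose their oocytes soon after birth. TAF4B is a germ-cell form of a subunit of TFIID, the complex that places RNA polymerase II at promoters, and TBPL2 is a relative of the TATA-binding protein TBP that works in its place in growing oocytes. SOHLH1 and SOHLH2 act early, in oocytes of the smallest follicles, whereas oocytes harvested after PMSG come from later stages.

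The 250 bases before the transcription start are shown for the homeodomain and helix-loop-helix members that were called higher in cKO (Figla, Nobox and Lhx8) and for Tbpl2, which was not. They come from RefSeq (build GRCm38.p6, the assembly that mm10 names) and read from 5′ to 3′ on the strand of the gene. Capitals mark E-boxes, CANNTG on either strand, which is its own reverse complement. The windows are chr6:86016941-86017190 on the plus strand for Figla, chr6:43309555-43309804 on the minus strand for Nobox, chr3:154330561-154330810 on the minus strand for Lhx8 and chr2:24096596-24096845 on the minus strand for Tbpl2.
Figla: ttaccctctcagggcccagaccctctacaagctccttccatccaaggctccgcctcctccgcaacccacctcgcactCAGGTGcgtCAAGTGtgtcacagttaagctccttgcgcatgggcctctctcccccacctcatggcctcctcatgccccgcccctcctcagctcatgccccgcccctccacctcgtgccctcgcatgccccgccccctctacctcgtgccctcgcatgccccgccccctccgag
Nobox: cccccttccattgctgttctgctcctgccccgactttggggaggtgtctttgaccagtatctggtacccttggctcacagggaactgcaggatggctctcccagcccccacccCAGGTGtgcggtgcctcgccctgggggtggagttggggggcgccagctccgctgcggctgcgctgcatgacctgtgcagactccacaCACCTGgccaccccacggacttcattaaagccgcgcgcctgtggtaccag
Lhx8: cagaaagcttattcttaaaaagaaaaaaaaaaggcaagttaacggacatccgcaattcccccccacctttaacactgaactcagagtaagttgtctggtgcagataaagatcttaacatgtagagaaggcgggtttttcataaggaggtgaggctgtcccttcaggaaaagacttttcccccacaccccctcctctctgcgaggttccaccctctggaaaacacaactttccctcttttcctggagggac
Tbpl2: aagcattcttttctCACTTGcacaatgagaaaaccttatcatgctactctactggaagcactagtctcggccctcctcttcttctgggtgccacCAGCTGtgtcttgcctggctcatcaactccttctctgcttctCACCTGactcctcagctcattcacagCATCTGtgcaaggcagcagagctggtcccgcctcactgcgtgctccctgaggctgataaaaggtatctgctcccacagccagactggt
Figla and Nobox held 2 E-boxes each, Tbpl2 held 4 and Lhx8 held 0. The same window held 5 for Sohlh1 and 1 for Sohlh2, so 5 of 6 members with a RefSeq window had at least 1. Over 32851 RefSeq promoter windows of the same length 66.2% had at least 1 E-box and 3.84% had at least 4. None of the 6 windows held TATAAA on either strand, which 12.4% of all windows do. None held a NOBOX element either, searched on both strands as the letters TAATTG, alternatively TAGTTG, alternatively TAATTA, which 16.1% of all windows do. The letters describe these windows and say nothing about whether a factor binds there.

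The library totals lay between 20167665 and 29407659 counts, and the targeted gene set the genotypes apart. Nat10 was at 44.98 to 64.5 CPM (counts scaled to a common library size with edgeR's TMM factors) in WT and 7.18 to 7.98 CPM in cKO, or 14.5% of WT. Markers of the oocyte were abundant in both genotypes: the summed level of 7 of them (Zp3, Ddx4, Dppa3, Gdf9, Ooep, Bmp15 and Dazl) was 18359 to 21290 CPM in WT and 21428 to 21873 CPM in cKO, and Zp3 and Dazl were called higher in cKO. The sum of 12 granulosa and cumulus markers was 86.9 to 92.95 CPM in WT and 68.6 to 70.7 CPM in cKO. Of these, 3 were lower in cKO (Inha, Gja1 and Hsd17b1) and 0 were higher. Amh, Foxl2, Wt1 and Amhr2 stayed under 1 CPM in all 6 libraries. The most abundant of the 12, Cyp19a1 (32.5 to 39.7 CPM) and Nr5a2 (16.3 to 26.2 CPM), were not called. Fshr and Inhba had groups apart in opposite directions, and neither was called. Fshr was at 0.78 to 1.98 CPM in WT and 2.34 to 2.44 CPM in cKO. Inhba was at 2.40 to 2.85 CPM in WT and 0.42 to 1.87 CPM in cKO. The 5 theca and stroma markers, of which Dcn and Star had the highest means over all libraries, summed to at most 3.60 CPM in every library. Among them Cyp17a1 was at 0.20 to 1.35 CPM in WT and 0 to 0.14 CPM in cKO, and it did not pass the filter on low counts. The 4 blood and immune markers, of which Cd68 made up most, summed to at most 3.79 CPM. Hbb-bs and Hba-a1 are listed at 0, but their counted exons overlap a near-identical neighbour, so they check nothing. The part of follicle cell RNA in the results below was not tested.

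With TMM scaling, which sets a gene against the bulk of the transcripts, 4 of the 7 members were higher in cKO at an adjusted p under 0.05 and 0 were lower. Of all 14114 genes tested, 20.1% were called higher and 20.1% lower, together 40.2%. Taf4b showed the widest gap among the called members, at 1.83-fold, and Figla, Lhx8 and Nobox were between 1.29-fold and 1.46-fold higher. Sohlh2 missed the threshold, Sohlh1 had few counts and Tbpl2 was not called. The median log2 fold change of the 7 was 0.39, and that of all tested genes was 0.01. The test was edgeR's quasi-likelihood F test, two-sided, with Benjamini-Hochberg adjustment over all tested genes. Without cKO replicate 1 the count of called members fell from 4 to 1 (Taf4b). That fit called 2184 of 14398 tested genes higher, against 2836 of 14114 in the fit with all libraries.

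**Figure D1:**
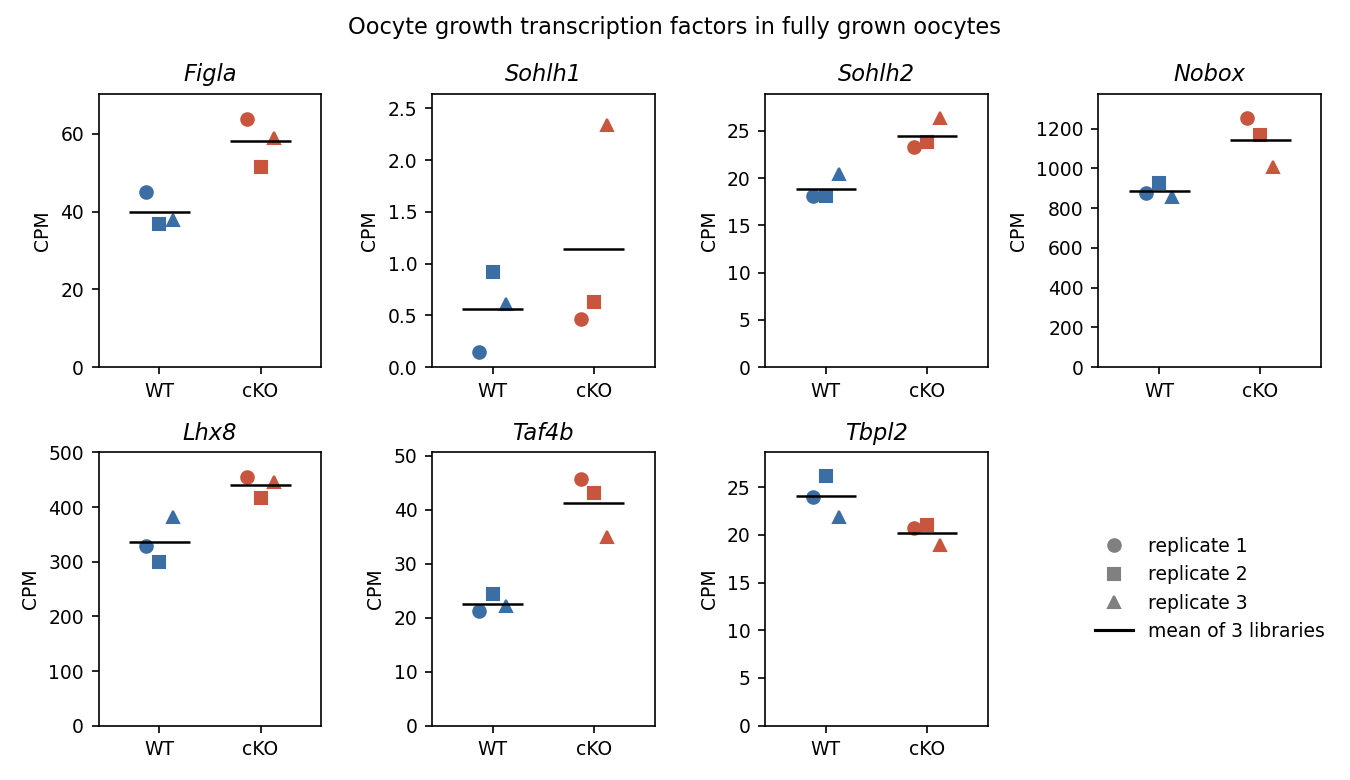
Level of each gene in each library, in CPM on linear axes that start at 0. Points are single libraries, marker shapes are replicate numbers, which no label gives as pairs, and bars are the means of 3. In Figla, Sohlh2, Nobox, Lhx8 and Taf4b every cKO library lies above every WT library, in Tbpl2 every cKO library lies below, and in Sohlh1 the groups overlap. Of all tested genes 26.0% have every cKO library above every WT library, and 52.0% have groups apart in either direction.

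Of the helix-loop-helix genes, Figla was the most abundant. Figla lies on chromosome 6 (86017191 to 86020996, plus strand, mm10) and was counted over 759 bases in 3 exons. Its level was 44.98, 36.9 and 37.7 CPM in WT replicates 1 to 3 and 63.8, 51.5 and 58.8 CPM in cKO replicates 1 to 3. All 3 cKO libraries were higher than all 3 WT libraries. The means were 39.9 ± 4.5 CPM (SD, n = 3) in WT and 58.03 ± 6.1 CPM (SD, n = 3) in cKO, a log2 difference of 0.54 ± 0.15 (SE; adjusted p = 0.0121 in edgeR's quasi-likelihood test). Groups that do not overlap with cKO above WT were found for 26.0% of all tested genes. Without cKO replicate 1 the value for Figla was 0.47 and no longer passed (adjusted p = 0.0600, edgeR). It was 0.29 (adjusted p = 0.112, edgeR) once trends of the counts with exonic length and GC content had been removed from each library.

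Sohlh2, the partner of Sohlh1, missed the threshold although its groups did not overlap. It lies on chromosome 3 (55182044 to 55209957, plus strand), with 11 counted exon blocks of 2348 bases. Its level was 18.1, 18.1 and 20.4 CPM in WT and 23.3, 23.9 and 26.4 CPM in cKO. The lowest cKO library, at 23.3 CPM, lay above the highest WT library, at 20.4 CPM. The log2 difference was 0.38 ± 0.17 (SE), with a 95% confidence interval of 0.02 to 0.74 and an adjusted p of 0.0902 in edgeR's test. That size is close to those of Nobox and Lhx8, whose standard errors were smaller (0.11 and 0.12). Sohlh2 passed with scaling to library totals (0.49, adjusted p = 0.0334, edgeR) and after the length and GC correction (0.43, adjusted p = 0.0490, edgeR).

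Sohlh1 had the lowest level of the 7 members. The gene lies on chromosome 2 (25842997 to 25847248, minus strand), with 8 counted exon blocks of 1287 bases. Its counts were 4, 20 and 12 in the WT libraries and 14, 18 and 65 in the cKO libraries, or 0.14 to 0.92 CPM and 0.47 to 2.34 CPM. The groups overlapped, and cKO replicate 3 alone held more counts than the other 2 cKO libraries together. The log2 fold change was 1.05 with a 95% confidence interval of -0.60 to 2.71 (adjusted p = 0.298, edgeR), and 0.00056 without cKO replicate 3, so the difference rests on that library and is not larger than the spread between libraries.

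Nobox, a homeobox gene, was the most abundant member. It lies on chromosome 6 (43303674 to 43309554, minus strand), with 9 counted exons of 1893 bases. It reached 877.9, 928 and 855 CPM in the WT libraries and 1255, 1169 and 1008 CPM in the cKO libraries. The groups did not overlap, and cKO replicate 3 lay nearest to WT. The means were 887 ± 37 and 1144 ± 125 CPM (SD, n = 3), with a log2 fold change of 0.37 ± 0.11 (SE) and an adjusted p of 0.0185 in edgeR's test. The call ended without cKO replicate 1 (0.30, adjusted p = 0.107, edgeR) and after the length and GC correction (0.25, adjusted p = 0.0673, edgeR).

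Lhx8, a LIM homeobox gene on chromosome 3 (154306294 to 154330560, minus strand, 9 counted exons of 1977 bases), was the second in abundance. Its level was 328, 299 and 381 CPM in WT and 456, 417 and 447 CPM in cKO. The groups did not overlap, and WT replicate 3 was the WT library nearest to cKO. The means were 336 ± 42 and 439.96 ± 20 CPM (SD, n = 3), with a log2 fold change of 0.39 ± 0.12 (SE) and an adjusted p of 0.0190 in edgeR's test. Leaving out WT replicate 1, WT replicate 2 or cKO replicate 1 ended the call (adjusted p = 0.0622, 0.0783 and 0.0742, edgeR), at values of 0.39, 0.32 and 0.36.

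Taf4b, the TFIID subunit gene, had the largest fold change of the called members. It lies on chromosome 18 (14783245 to 14902103, plus strand), and its 15 counted exon blocks span 6893 bases, the longest of the 7. It stood at 21.2, 24.4 and 22.1 CPM in WT and at 45.7, 42.99 and 34.96 CPM in cKO. Every cKO library exceeded every WT library by more than the whole range of the WT libraries. The means were 22.6 ± 1.7 and 41.2 ± 5.6 CPM (SD, n = 3), with a log2 fold change of 0.87 ± 0.16 (SE) and an adjusted p of 0.00124 in edgeR's test. Leaving out any 1 library kept the call, at values from 0.79 to 0.98. The correction for length and GC content raised the value to 1.18 (adjusted p = 9.5e-05, edgeR). It lowered those of Figla, Nobox, Sohlh1 (0.46) and Lhx8 (0.35), and raised those of Sohlh2 (0.43) and Tbpl2 (-0.21). Length and GC content were fitted together, and their separate parts were not tested.

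Tbpl2, the TBP relative of growing oocytes, was the only member with a lower mean in cKO. It lies on chromosome 2 (24071366 to 24096595, minus strand), with 7 counted exon blocks of 1734 bases. Its level was 23.95, 26.2 and 21.9 CPM in WT and 20.7, 21.04 and 18.99 CPM in cKO. The groups did not overlap, but they lay close together, and groups apart in either direction were found for 52.0% of all tested genes. The means were 24.03 ± 2.1 and 20.2 ± 1.1 CPM (SD, n = 3), with a log2 fold change of -0.25 and a 95% confidence interval of -0.61 to 0.12 (adjusted p = 0.263, edgeR). The interval does not show that the level is the same in both genotypes.

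The size of the members' fold changes, and which of them were called, depended on what the libraries were scaled to. Added ERCC spike-in RNA took 0.25% to 0.32% of reads in WT and 0.34% to 0.43% in cKO. There were thus 288 to 370 endogenous reads per spike-in read in WT and 214 to 270 in cKO. As these are bulk libraries, fewer oocytes in a library and less RNA per oocyte cannot be told apart in these values. Scaling by the spike-in moved the median log2 fold change of all genes to -0.39, and scaling by library totals moved it to 0.12, with 3450 genes called higher and 2253 lower, against 2836 and 2838 with TMM. With spike-in scaling 0 of the 7 members were called higher, against 8.37% of all genes, and 1 was called lower, Tbpl2, against 34.2%. Tbpl2 then stood at -0.66 with a 95% confidence interval of -1.17 to -0.14 (adjusted p = 0.0326, edgeR). Nobox was at -0.03, Lhx8 at 0.01, Sohlh2 at -0.02 and Figla at 0.15, none of them called, and Taf4b at 0.47 with an interval of -0.01 to 0.96 (adjusted p = 0.113, edgeR). Set against the median of all genes, the values differed little between scalings. Taf4b lay 0.86 above it with TMM and 0.87 above it with spike-in scaling, and Tbpl2 lay at -0.25 and -0.26 from it. A scaling uses 1 factor per library and shifts all genes and their median about equally. The distance is thus kept by construction and is no check on the members.

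**Figure D2:**
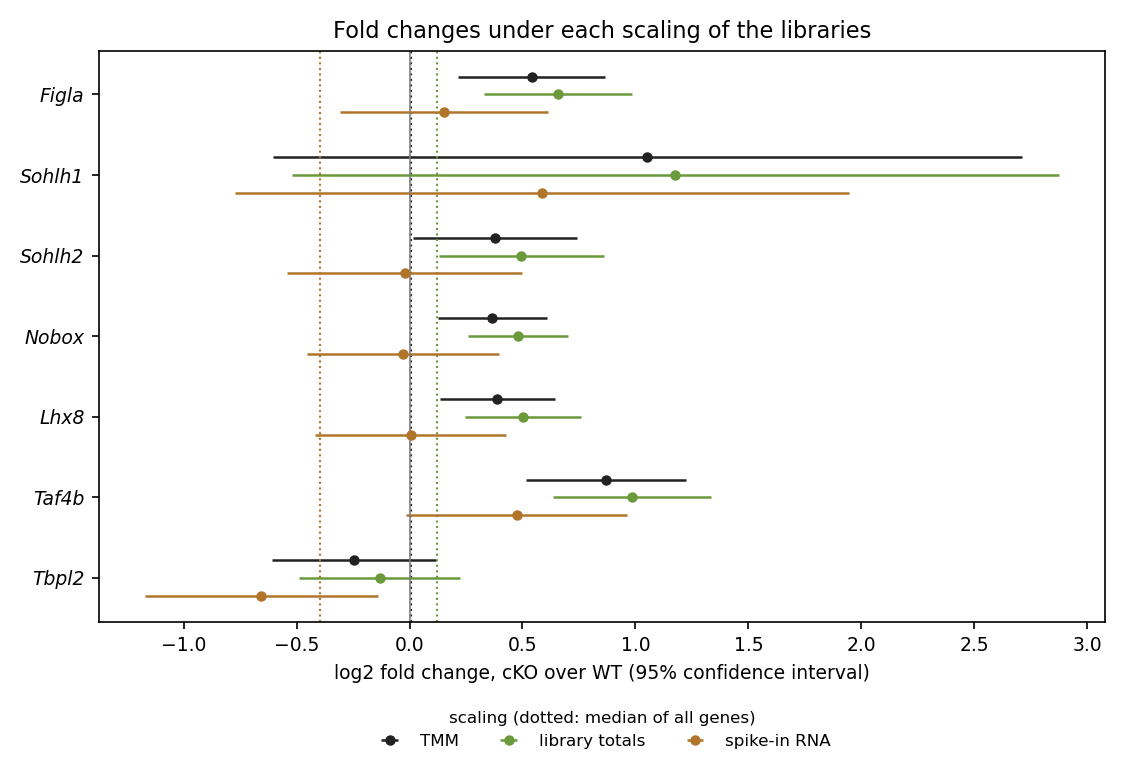
Log2 fold change of each gene, cKO over WT, with its 95% confidence interval, under 3 scalings of the libraries; dotted lines are the medians of all tested genes (0.01 with TMM, 0.12 with library totals and -0.39 with spike-in RNA). By construction a change of scaling shifts every gene and the dotted line about equally, so that mainly the position relative to 0 changes. Tbpl2 lies lowest under each scaling.

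Ratios between members within a library do not depend on the scaling, and those to Tbpl2 are described here without a passed test. The count ratio of Taf4b to Tbpl2 was 0.885, 0.931 and 1.007 in the WT libraries and 2.21, 2.04 and 1.84 in the cKO libraries. All 3 WT libraries held about as many counts of the one as of the other, and all 3 cKO libraries held more of Taf4b. For Nobox the ratio to Tbpl2 went from 35.4 to 38.998 in WT to 53.1 to 60.6 in cKO, and for Figla from 1.41 to 1.88 to 2.45 to 3.09. In 5 of 6 members the 3 cKO libraries all had a higher ratio to Tbpl2 than the 3 WT libraries, Sohlh1 being the exception. The same held for 36.0% of the 14113 tested genes besides Tbpl2. For those 5 members this had to be so, because their levels were higher and that of Tbpl2 lower in every cKO library. It is therefore no separate support for a difference. Of the 21 ratios between members, each tested with an exact two-sided permutation test, none could pass: the smallest p that 3 against 3 libraries allow is 0.1, which becomes 0.35 after adjustment over the 21.

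Figla, Nobox, Lhx8 and Sohlh2 kept similar proportions to each other. The ratio of Nobox to Lhx8 was 2.68, 3.10 and 2.24 in WT and 2.75, 2.80 and 2.26 in cKO. The 6 ratios among these 4 genes had overlapping groups, with differences between -0.03 and 0.18 on the log2 scale (exact permutation p between 0.4 and 1), a design too small to show that they are equal. Of the ratios of these genes to Taf4b, only that of Nobox had groups apart. It was 38.04 to 41.4 in WT and 27.2 to 28.8 in cKO (exact permutation p = 0.1, the smallest possible). The ratios of Figla, Lhx8 and Sohlh2 to Taf4b had overlapping groups (exact permutation p = 0.2 each). How many other genes part from Nobox in this way was not counted.

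**Figure D3:**
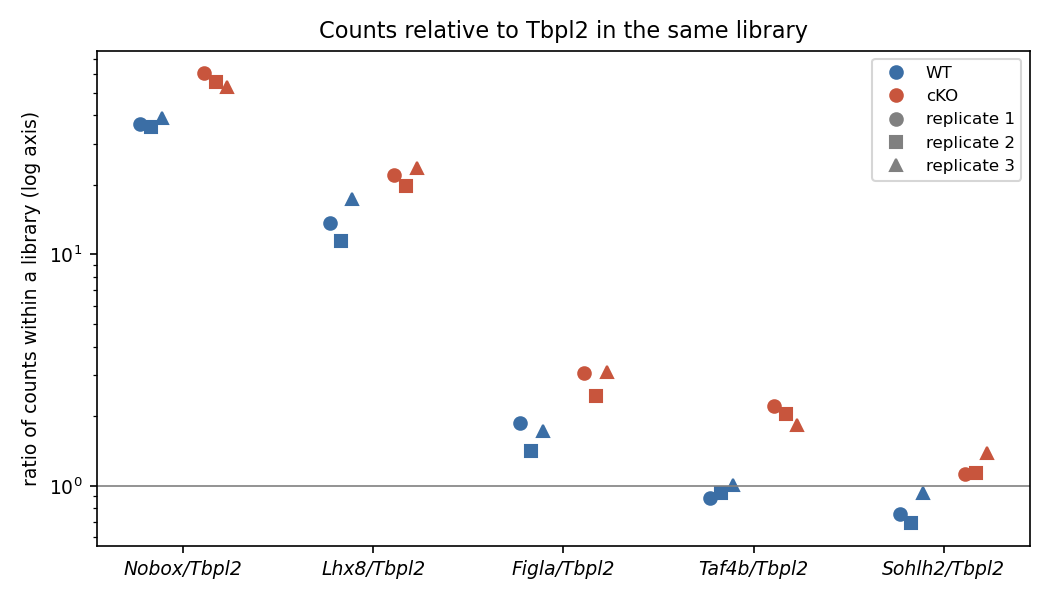
Counts of 5 members divided by those of Tbpl2 in the same library, on a log axis; each point is 1 library, coloured by genotype and shaped by replicate number. For all 5 genes the cKO libraries lie above the WT libraries, which follows from their levels and that of Tbpl2. The same holds for 36.0% of the 14113 tested genes besides Tbpl2. Sohlh1 is not drawn, and its ratios overlap (0.006 to 0.035 in WT and 0.023 to 0.123 in cKO). The ratio of Taf4b to Tbpl2 goes from 0.885 to 1.007 in WT to 1.84 to 2.21 in cKO.

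Per kilobase of exon the members covered a wide range, and their order was the same in both genotypes. Mean levels in WT were 469 CPM per kilobase for Nobox, 169.98 for Lhx8, 52.5 for Figla, 13.9 for Tbpl2, 8.03 for Sohlh2, 3.27 for Taf4b and 0.434 for Sohlh1. In cKO they were 604, 223, 76.5, 11.7, 10.4, 5.98 and 0.890 CPM per kilobase. The libraries of neighbours in this order did not overlap in WT. In cKO those of Tbpl2 (10.95 to 12.1) and Sohlh2 (9.91 to 11.2) did. Nobox ranked above 98.97% or more of the tested genes in every library by this level, whereas Taf4b stood between the 42.6th and 44.5th percentile in WT and between the 50.3rd and 55.1st in cKO.

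The germ-cell subunits were also set against their general counterparts. Tbp and Tbpl1 encode the other members of the TBP family, and Taf4 the widely expressed form of TAF4B. Tbpl2 made up 11.3%, 11.2% and 11.6% of the summed counts per kilobase of Tbp, Tbpl1 and Tbpl2 in WT, and 9.39%, 8.93% and 10.1% in cKO. All cKO libraries were lower, with means of 11.3% ± 0.2 and 9.46% ± 0.57 (SD, n = 3). Tbp itself was not called (191 ± 21 and 202 ± 25 CPM, SD, n = 3), while Tbpl1 fell from 13.9 ± 2.3 to 7.27 ± 1.6 CPM (log2 -0.94, adjusted p = 0.00687, edgeR). Taf4b made up 24.2%, 31.1% and 20.7% of the Taf4 and Taf4b sum in WT and 49.2%, 44.9% and 32.6% in cKO. The groups did not overlap, although cKO replicate 3 lay close to WT replicate 2. With TMM scaling Taf4 was not called (43.8 ± 9.8 and 36.8 ± 8.4 CPM, SD, n = 3, log2 -0.25, adjusted p = 0.340, edgeR). Taf4 was called lower after the length and GC correction (-0.53, adjusted p = 0.0168, edgeR) and with spike-in scaling (-0.65, adjusted p = 0.0203, edgeR). Both shares reached the smallest p of the exact two-sided permutation test, 0.1, which is not below 0.05 in a design of this size. These are shares of transcripts and not of proteins.

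**Figure D4:**
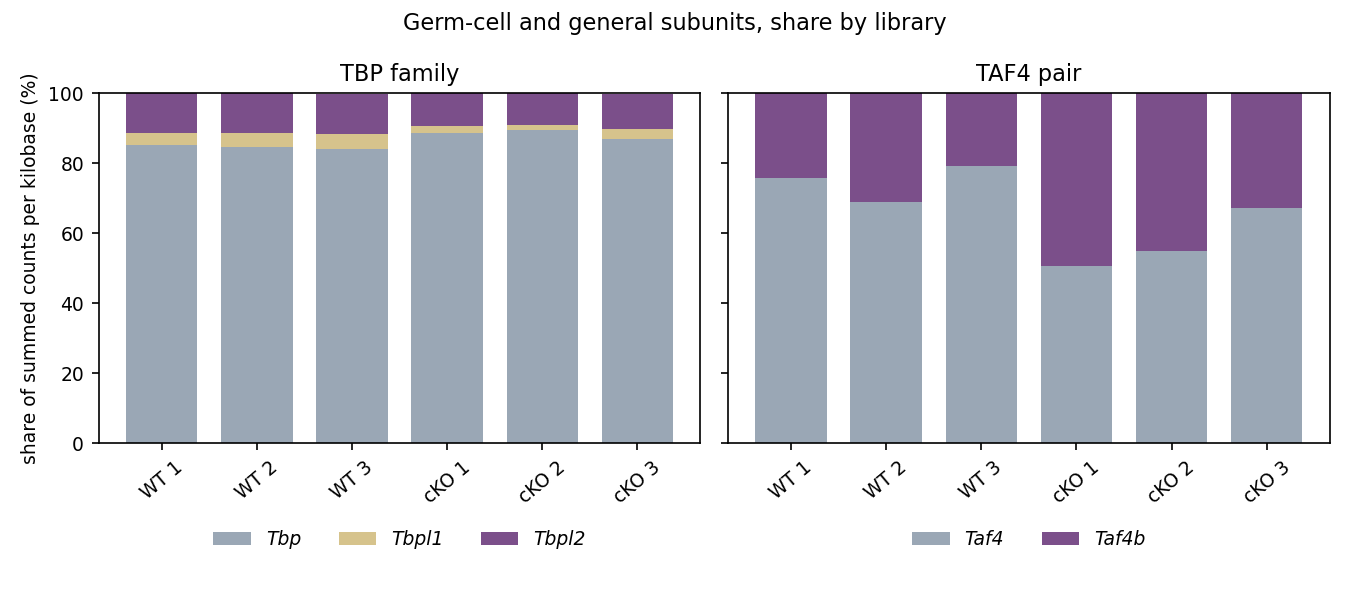
Share of each gene in the summed counts per kilobase of its family, by library, in percent. The Taf4b part is larger in each cKO library (32.6% to 49.2%) than in each WT library (20.7% to 31.1%), and the Tbpl2 part is smaller (8.93% to 10.1% against 11.2% to 11.6%).

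Genes reported in mouse as targets of these factors were called about as often as genes in general. Of 20 tested, 3 were higher and 5 lower in cKO, together 40%, against 40.2% of all tested genes, with a median of -0.10 against 0.01. Jag1, Kdm1b and Dnmt1 are the least certain entries of this list. The zona pellucida genes Zp2 and Zp3, known targets of FIGLA in mouse, rose 1.34-fold each, from 3743 ± 543 to 5033 ± 477 and from 3262 ± 299 to 4377 ± 329 CPM (SD, n = 3). The third zona gene of the list, Zp1, stood at 2333 ± 255 and 2182 ± 84 CPM and was not called. Padi6, which encodes a protein of the oocyte's cytoplasmic lattices, rose 1.28-fold. Fgf8, a growth factor gene, fell to 37.99% of WT (log2 -1.40 ± 0.16, SE, adjusted p = 4.05e-05, edgeR; -2.16 after the length and GC correction), and Jag1, a Notch ligand gene, fell to 40.8% (565 ± 26 to 231 ± 6 CPM). The receptor gene Gpr149 fell to 55.96%, Mos, the kinase gene of the meiotic MAPK cascade, to 77.0% and Rfpl4 to 76.7% of WT. The secreted factor genes Gdf9 and Bmp15 were not called, at 105% and 95.3% of WT. Zp1, Zp2, Padi6, Mos and Rfpl4 were named after their values were seen. Oog1 is listed at 0 in all libraries, and all 1835 of its exonic bases overlap another annotated gene. Without cKO replicate 1, Zp2 (0.39), Padi6 (0.33) and Rfpl4 (-0.32) were no longer called, and Mos was not called without WT replicate 1 (-0.31), WT replicate 2 (-0.31) or cKO replicate 3 (-0.32). Rfpl4 was not called without WT replicate 1 (-0.29) or cKO replicate 3 (-0.34) either. After the length and GC correction Zp3 was not called (0.03), Zp1 was called lower (-0.36) and Mos stood at -0.59. With scaling to library totals Mos (-0.26) and Rfpl4 (-0.27) were not called. With spike-in scaling 0 of the 20 tested were higher and 10 lower, against 8.37% and 34.2% of all tested genes.

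Of 19 genes of the TFIID and TFIIA machinery and the TBP paralogs, 2 were higher and 2 lower, a share of 21.1% against 40.2% of all tested genes, with a median of -0.06. Taf10 rose most, from 9.27 ± 0.95 to 36.97 ± 19.7 CPM (SD, n = 3), with 22.1 to 59.3 CPM in the cKO libraries; 32 of its exonic bases overlap Ilk on the other strand. Gtf2a2, the small subunit of TFIIA, rose 1.28-fold, and Taf3 fell to 72.9% of WT. Gtf2a1l, the germ-cell form of the large TFIIA subunit, stood at 255 ± 22 and 245 ± 17 CPM and was not called; it was named after its values were seen. The calls of Gtf2a2 and Taf3 were fragile. Gtf2a2 was not called when WT replicate 1, 2 or 3 or cKO replicate 1 or 3 was left out (0.30 to 0.39), and Taf3 was not called without WT replicate 1 or 3 or cKO replicate 1 or 3 (-0.48 to -0.30). The call of Taf3 also ended after the length and GC correction (-0.22, adjusted p = 0.220, edgeR) and with library totals (-0.34, adjusted p = 0.0714, edgeR), and 1031 of its 4805 exonic bases overlap a gene on the other strand. With spike-in scaling 1 of the 19 genes was higher and 8 were lower, against 8.37% and 34.2% of all tested genes.

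Dimer and complex partners of the helix-loop-helix and LIM homeodomain proteins included calls in both directions. Of 14 tested 5 were higher and 3 lower, 57.1%, against 40.2% of all tested genes, with a median of 0.26. The inhibitor genes Id1, Id2 and Id3, whose proteins bind helix-loop-helix factors and keep them from DNA, rose 2.32-fold, 2.21-fold and 2.77-fold. Id3 was the most abundant of the 3, at 13.5 ± 0.8 CPM in WT and 37.2 ± 16.4 CPM in cKO (SD, n = 3), with 20.7 to 53.4 CPM in the cKO libraries. Of the E protein genes, whose products pair with tissue-specific helix-loop-helix factors, Tcf3 rose 1.72-fold and Tcf4 fell from 3.94 ± 0.91 to 0.809 ± 0.68 CPM. Tcf12, also an E protein gene, was 1.54-fold higher without being called (adjusted p = 0.0530, edgeR). Tcf12 was called higher with DESeq2, limma-voom, library totals and the length and GC correction, but not with spike-in scaling. Ldb2, which encodes a LIM-binding cofactor, rose from 3.57 ± 1.4 to 11.1 ± 1.7 CPM, Lmo3, a LIM-only gene, fell to 56.5% and Ssbp2, which encodes a partner of LDB proteins, to 73.9% of WT, although 2377 of its 6680 exonic bases overlap a gene on the other strand. Id1, Id2, Tcf3, Tcf12 and Ssbp2 were named after their values were seen. The call of Id1 ended in 5 of 6 fits that left out 1 library, all but that without WT replicate 3, where it was 1.85. Without WT replicate 1 Id2 (1.02), Lmo3 (-0.68) and Ssbp2 (-0.41) were not called, and without cKO replicate 1 Id2 (0.78) was not. Without WT replicate 2 Tcf3 (0.61) and Ssbp2 (-0.36) were not called, nor without cKO replicate 3 (0.54 and -0.31). The length and GC correction ended the calls of Tcf3 (0.29), Ssbp2 (-0.13) and Id1 (0.88), and scaling to library totals that of Ssbp2 (-0.32). With spike-in scaling 3 of the 14 tested were higher and 4 lower, against 8.37% and 34.2% of all tested genes.

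Other regulators of follicle activation and oocyte growth were also called about as often as genes in general. Of 10 tested 2 were higher and 2 lower, together 40%, against 40.2% of all tested genes, with a median of 0.35. Stat3, one of the factors known in mouse to drive oocyte growth together with Figla, Nobox, Lhx8, Sohlh1 and Tbpl2, stood at 133 ± 7 CPM in WT and 215 ± 32 CPM in cKO (SD, n = 3), and rose by 0.70 ± 0.13 on the log2 scale (SE; adjusted p = 0.00121, edgeR). Of the others in that set, Sub1 (680 ± 42 and 623 ± 8 CPM) and Dynll1 (259 ± 12 and 264 ± 15 CPM) were not called; both were named after their values were seen. Tsc2, a brake on mTOR signalling, rose 1.74-fold, although its exons overlap Pkd1 on the other strand by 699 bases. Bnc1, the basonuclin gene, fell from 108 ± 8 to 40.6 ± 1.3 CPM, and Sall4 fell to 72.2% of WT. With spike-in scaling 0 of the 10 tested were higher and 3 lower, against 8.37% and 34.2% of all tested genes.

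**Figure D5:**
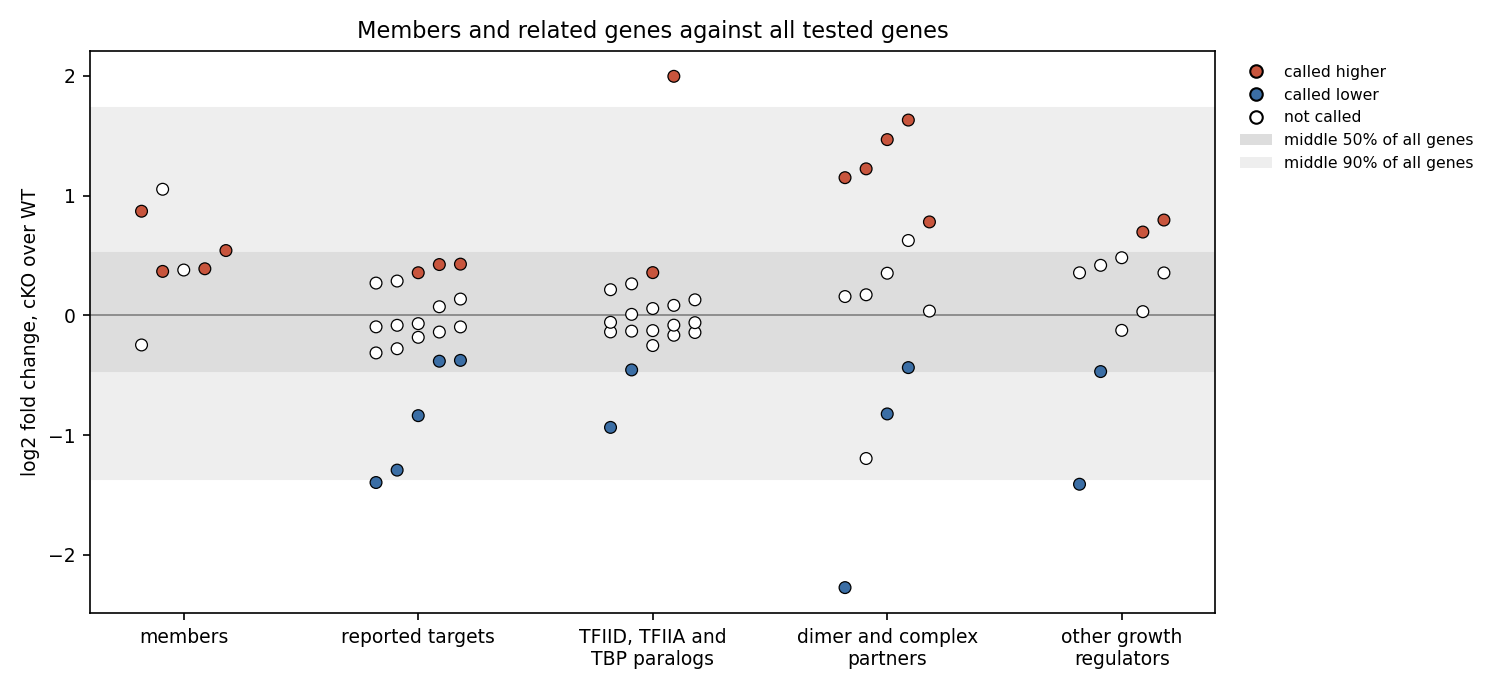
Log2 fold change, cKO over WT, of each tested gene of the 5 lists; red points were called higher, blue points lower and white points were not called, and the shaded bands hold the middle 50% and 90% of all tested genes. The members lie between -0.25 and 1.05, and Fgf8 among the targets, Taf10 in the TFIID list, Tcf4 among the partners and Bnc1 among the other regulators lie outside the wider band.

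The gene whose log2 CPM followed each member most closely over the 6 libraries was taken from the 8240 genes with at least 10 CPM on average. It was Cdk5rap3 for Figla, Abce1 for Nobox, Ripk2 for Sohlh2, Wdr62 for Lhx8, Srprb for Taf4b, Rnf24 for Tbpl2 and Lrrc8b for Sohlh1. Pearson's r was between 0.987 and 0.998. For every member except Sohlh1 between 297 and 762 genes, the named gene included, had an r over 0.9. All 6 libraries enter each r, with the difference between the genotypes included, so no p is given.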

How the data were processed

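The authors deposited raw counts per gene symbol for 6 libraries, with exonic lengths, in the layout of featureCounts per the file headers. Trimming and alignment tools were Trim Galore 0.6.7 and STAR 2.7.10a, with featureCounts and the mm10 build, per the submitters' processing notes. The sources used here give no options for strand, multi-mapping or overlapping reads. Smart-seq2 has no molecular identifiers, so PCR copies count as reads, and intervals cover the spread between libraries only. A second deposited table gives the fraction of reads mapped and from ERCC RNA; its headings say percent, and its values were converted to percent here, with all reads taken as the denominator.

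Groups and replicate numbers come from the sample titles. Genes passing filterByExpr (minimum count 10) were tested with edgeR 4.0.16 in R 4.3.3 (TMM, quasi-likelihood F test, no block, Benjamini-Hochberg over all tested genes, threshold 0.05). The biological coefficient of variation was 0.215. Standard errors were derived from each log2 fold change and its F statistic. CPM uses TMM-scaled totals; CPM per kilobase divides by exonic length. Shares and ratios within a library used exact permutation tests over 20 assignments. The test was also run on simulated counts in which far fewer genes changed than were called here. That run is no check on false calls in these data. Alternatives were DESeq2 1.42.0, limma-voom 3.58.1, library totals, spike-in scaling, no filter, a replicate block, a smooth trend on length and GC content (mgcv 1.9.3, GENCODE M21 transcripts) and leaving out each library.

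The members and the 4 other lists were chosen with earlier results of these data known; list members come from general knowledge of mouse studies. Named genes are Nat10, the members, up to 4 called genes per list with the smallest p, the paralogs Tbp, Tbpl1 and Taf4, the gene most like each member, and markers, plus those marked as named later.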

Additional observations from a re-analysis of the deposited data

How the results depend on the processing

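Spike-in scaling had the widest effect: Figla (0.15), Lhx8 (0.0055) and Taf4b (0.47) were no longer called, Nobox changed sign without being called (-0.028), and Tbpl2 became a call (-0.66). Members called higher went from 4 to 0 and those called lower from 0 to 1. The lists went to 0 higher and 10 lower for targets, 1 and 8 for TFIID and TFIIA, 3 higher for partners and 0 higher for other regulators. Of all tested genes 8.37% were then called higher and 34.2% lower. The scaling's own construction, fewer endogenous reads per spike-in read in cKO, shifts every gene. The length and GC correction ended the calls of Figla (0.29) and Nobox (0.25), added Sohlh2 (0.43), and gave 8 lower targets and 5 higher other regulators. Library totals added Sohlh2 (0.49) and gave 3 lower targets, 1 lower TFIID gene and 4 higher other regulators. DESeq2, limma-voom and no filter changed no call among the members or counts of the lists by over 1.5 times. The cause of these changes was not tested. No label says whether the numbers 1 to 3 pair the libraries. Deviations from the group means correlated at -0.02, 0.06 and 0.11 between libraries of one number, and at -0.11 to 0.06 between libraries of different numbers. WT replicates 2 and 3 correlated best with the cKO library of their own number, and WT replicate 1 with cKO replicate 2 (0.06). These values do not settle whether the libraries are paired. With a replicate block 3089 genes were called higher and 3110 lower, the values of the members were 0.54 for Figla, 0.36 for Nobox, 0.98 for Sohlh1, 0.38 for Sohlh2, 0.40 for Lhx8, 0.86 for Taf4b and -0.25 for Tbpl2, no member's call changed, and other regulators had 4 higher.

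Leaving out 1 library at a time gave 0.47 to 0.66 for Figla, 0.30 to 0.45 for Nobox, 0.00056 to 1.65 for Sohlh1, 0.33 to 0.44 for Sohlh2, 0.32 to 0.49 for Lhx8, 0.79 to 0.98 for Taf4b and -0.31 to -0.17 for Tbpl2. Members called higher ranged from 1 to 4, and all tested genes called higher from 2181 to 2797. Targets ranged from 1 to 5 higher and 3 to 6 lower, TFIID and TFIIA genes from 1 to 2 in each direction, partners from 3 to 6 higher and 2 to 3 lower, and other regulators from 2 to 4 higher. The share difference of Tbpl2 in its family lay between -2.19 and -1.62 percentage points and that of Taf4b between 13.4 and 21.7. Sohlh1 had 4 to 65 counts in a library, and its precision is the lowest of the members.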
